A study of Mus musculus with 12 samples.

Results

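Natural killer (NK) cells read a target through germline-encoded C-type lectin receptors, and 9 genes of the NKG2, CD94 and related families were followed here: Klrc1, Klrc2, Klrc3, Klrd1, Klrk1, Klre1, Klri1, Klri2 and Klrg1. They were taken by symbol from a table of 55487 features, and each of the 9 had 1 row. The table holds 12 RNA-seq libraries of sorted mouse NK cells primed with IL-15 (HD IL-15 in the labels), in 3 groups of 4. Cells of the first group were left unstimulated; the others received anti-NK1.1 during 6 h and were split by a fluorescent reporter into YFP- and YFP+ cells. All 12 libraries carry strain B6.129S4-Ifngtm3.1Lky/J with genotype mut/mut, so the reporter allele of the interferon gamma gene is shared by the unstimulated controls, and no group without it was compared. Libraries are named by their replicate labels f2, m2, m3 and m4, which recur in each group. The labels do not state the age of the mice, or whether 1 label marks 1 mouse, so p-values measure the spread between these libraries, which may be technical. For the unstimulated libraries the labels give no time and no YFP gate. In comparisons with them, stimulation, time and sorting by the reporter cannot be told apart. NK1.1, the receptor bound by the stimulating antibody, is itself a lectin receptor, encoded by Klrb1c.

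CD94, the product of Klrd1, has almost no cytoplasmic tail and forms heterodimers with NKG2 proteins that recognise Qa-1, a non-classical MHC class I molecule loaded with leader peptides of other class I molecules. The partner decides the sign of the signal: NKG2A (Klrc1) carries an immunoreceptor tyrosine-based inhibitory motif (ITIM) that recruits phosphatases, while NKG2C (Klrc2) and NKG2E (Klrc3) lack it and act in activating complexes. NKG2D (Klrk1) is a homodimer that recognises stress-induced ligands and signals through the adaptors DAP10 (Hcst) and DAP12 (Tyrobp). KLRE1 pairs with KLRI1 in an inhibitory or with KLRI2 in an activating heterodimer, and KLRG1, an inhibitory receptor of mature NK cells and effector T cells, binds cadherins.

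The coding sequences separate these receptors by 2 features, and the stretches that carry them are shown because the fold changes are set beside them below. The pattern of codons for an ITIM (isoleucine, leucine, valine or serine, any residue, tyrosine, any 2 residues, then leucine or valine) was searched ahead of the most hydrophobic run of 19 codons among the first 110, in the longest coding transcript of each gene (GENCODE M21, GRCm38). It was found once in Klrc1, once in Klrg1, at 2 places in Klri1, and in 0 of the other 6. Capitals mark the motif codons, with up to 7 codons on either side.
Klrc1, codons 1 to 18, exon 1, chr6:129678857-129678910, minus strand: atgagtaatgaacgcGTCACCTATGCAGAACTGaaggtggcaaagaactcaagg
Klri1, codons 9 to 28, exon 1, chr6:129717039-129717098, minus strand: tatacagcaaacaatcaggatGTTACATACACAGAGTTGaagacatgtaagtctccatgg
Klri1, codons 40 to 59, exon 1, chr6:129716946-129717005, minus strand: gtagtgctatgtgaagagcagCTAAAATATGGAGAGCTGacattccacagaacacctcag
Klrg1, codons 1 to 17, exon 1, chr6:122282761-122282811, minus strand: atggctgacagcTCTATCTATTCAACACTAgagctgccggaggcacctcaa

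A lysine or arginine codon within the hydrophobic run, the kind of charged residue through which receptors hold adaptors in the membrane, was found in Klrd1, Klrk1 and Klri2. Capitals mark these codons in the runs of 19 codons.
Klrd1, codons 14 to 32, exon 2, chr6:129593522-129593578, plus strand: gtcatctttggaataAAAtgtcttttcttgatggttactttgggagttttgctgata
Klrk1, codons 62 to 80, exons 3 and 4, chr6:129616718-129617483, minus strand: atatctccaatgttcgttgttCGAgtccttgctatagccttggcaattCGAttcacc
Klri2, codons 81 to 99, exon 2, chr6:129739078-129739134, minus strand: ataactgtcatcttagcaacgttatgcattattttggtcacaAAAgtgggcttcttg
Klrc2, Klrc3 and Klre1 had neither feature by these searches. The match of letters describes the sequence and does not show that a residue is used.

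On GRCm38, 8 of the genes lie within 162.6 kb (chr6:129577905-129740484), in the order Klre1 and Klrd1 on the plus strand, then Klrk1, Klrc3, Klrc2, Klrc1, Klri1 and Klri2 on the minus strand. Klrg1 (chr6:122270596-122282882, minus strand) lies 7.3 Mb away. The chains compared most closely below are Klrd1 (chr6:129591782-129598775), Klrc1 (chr6:129666015-129678973), Klrk1 (chr6:129610323-129623864) and Klre1 (chr6:129577905-129585827), all protein-coding genes. No annotated gene overlaps any of the 9. Coding sequences of Klrc2 and Klrc3 were 94.9% identical over 663 aligned bases, those of Klrc1 and Klrc2 83.1%, and those of Klri1 and Klri2 78.1%. Of the 100-base words in protein-coding transcripts, 18.1% in Klrc3, 14.6% in Klrc1 and 12.8% in Klrc2 also occur in another Klrc gene, and 0% in the other 6 genes occur elsewhere. How the authors counted reads with several matches is not given in the sources used here, so levels of Klrc1, Klrc2 and above all the low Klrc3 are uncertain by any reads shared among them.

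RefSeq promoter windows (GRCm38.p6) were matched for 6 of the 9 genes: Klrc1, Klrc2, Klrc3, Klrk1, Klre1 and Klri1. The 250 bases before the RefSeq start of Klrc2 and of Klrc3 align over 249 bases with 3 differences and 1 base that Klrc2 lacks (98.8% identity). Both windows (chr6:129660557-129660806 and chr6:129643289-129643538) reach into the GENCODE gene, which ends at 129660689 for Klrc2 and 129643337 for Klrc3. Whether the likeness of the windows bears on the lower level of both genes in YFP+ than in YFP- libraries was not tested. All 9 genes had negative fold changes there. The part upstream of every annotated Klrc2 exon is shown, and capitals mark bases that differ.
Klrc2, chr6:129660690-129660806, minus strand: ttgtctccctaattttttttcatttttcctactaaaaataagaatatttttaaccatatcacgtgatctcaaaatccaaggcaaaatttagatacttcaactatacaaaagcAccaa
Klrc3, chr6:129643422-129643538, minus strand: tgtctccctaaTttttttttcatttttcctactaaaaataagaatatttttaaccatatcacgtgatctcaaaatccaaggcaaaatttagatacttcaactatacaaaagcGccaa
The letters TGTGGT, a core bound by Runx factors, occur on either strand in the 250 bases of Klrc1, Klrc2, Klrc3, Klrk1 and Klre1 but not of Klri1, and in 14.0% of 32851 windows of this length. Neither stretch shown above holds these letters on either strand, so for Klrc2 they are not within the part upstream of its annotated exons. TGANTCA (AP-1; 6.75% of windows) and AGGTGT (T-box; 11.8%) occur in none of the 6, and GGAAAA (the NFAT core; 20.4%) occurs in Klrc2, Klrc3 and Klri1.

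Levels are given as CPM, the reads of a gene scaled to a library of 1 M (mega) reads. Depth ranged from 32.1 to 54.2 M reads, and 3 reads, taken as the smallest level that can be shown, correspond to 0.0553 to 0.0933 CPM. The share of ribosomal RNA-like features was 27.4 to 35.3% among unstimulated libraries, 15.9 to 30.3% among YFP- ones and 13.7 to 29.8% among YFP+ ones. Ifng, the gene that carries the reporter, averaged 329 CPM in YFP+, 45.8 in YFP- and 3.92 in unstimulated libraries, in the order of the sort. All 6 NK cell markers (Ncr1, Itga2, Eomes, Il2rb, Klrb1c and Prf1) were above 1 CPM in every library. The sum of 8 T cell markers was 52.8 to 113 CPM among unstimulated libraries, 68.1 to 93.9 among YFP- and 63.9 to 96.1 among YFP+ ones, mostly from Cd3d, Cd3g and Trac above 1 CPM in every library, with Cd4, Cd8a and Cd8b1 at 0.193 CPM or less. Within this list Trac was higher in stimulated libraries (27.6 to 41.9 CPM among YFP- and 40.4 to 54.5 among YFP+) than in unstimulated ones (6.83 to 8.47), Cd5 went from at most 0.126 CPM to at most 1.12, and Cd3e was at most 0.0829 CPM in YFP+. The part of these markers in the results below was not tested. Sums of B cell, myeloid, erythroid and ILC2 or ILC3 markers were at most 4.19, 2.84, 0.326 and 1.95 CPM. The granulocyte or mast cell list summed to 9.42 to 27.8 CPM, mostly from Mcpt8 (8.36 to 26.8 CPM). Cpa3 was at most 2.34 CPM, and S100a8, S100a9 and Ly6g were at 0.316 CPM or less. In bulk RNA, fewer cells with a transcript and less of it per cell cannot be told apart.

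**Figure D1:**
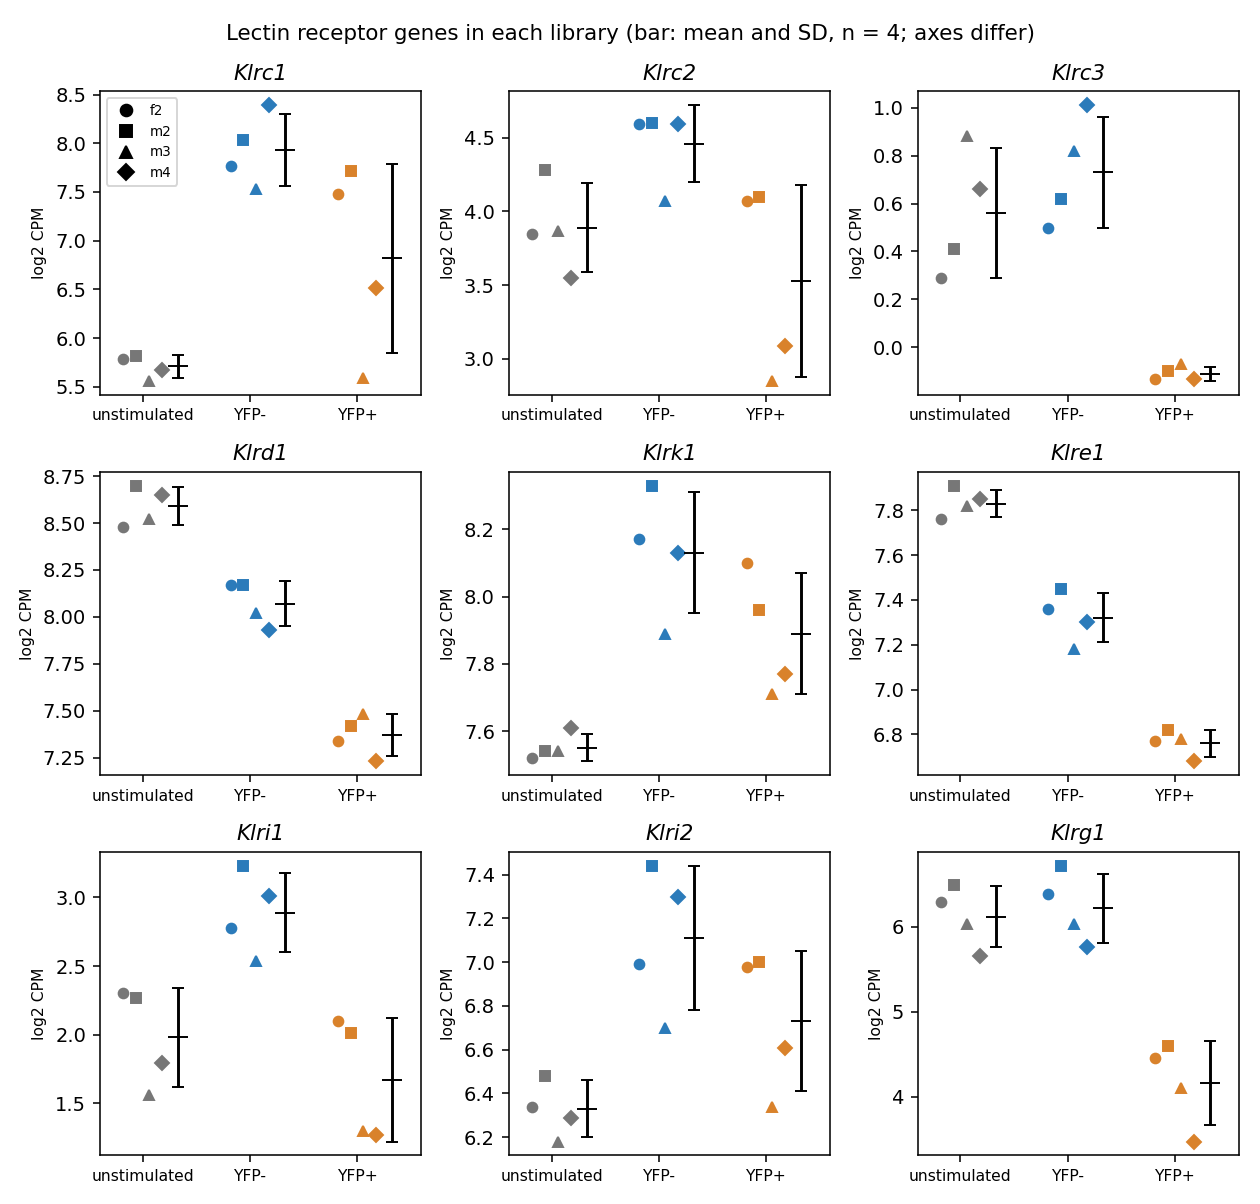
Deposited log2 CPM of the 9 receptor genes in each of 12 libraries, by group, with symbols for the replicate label and a bar for the mean and SD (n = 4). Klrd1 and Klre1 are highest in unstimulated, lower in YFP- and lowest in YFP+ libraries, with no overlap. Klrc1 is lowest in unstimulated libraries apart from YFP+ library m3, and Klrg1 is low in YFP+ libraries alone.

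Levels of different genes were compared per kilobase of exon union. Klrd1 was the highest of the 9 in each group, at a mean of 301, 211 and 129 CPM per kb in unstimulated, YFP- and YFP+ libraries. In unstimulated libraries Klre1 (65.4 CPM per kb) and Klrg1 (50.4) followed, with ranges that overlapped, then Klrc1 (26.4) and Klrk1 (26.1), which also overlapped, Klri2 (20.6), Klri1 (4.81), Klrc2 (2.58) and Klrc3 (2.01). Klrc1 moved to the second place in YFP- libraries, at 126 CPM per kb and clear of Klrg1 below it at 54.6, and in YFP+ libraries it lay at 66.4 with a range of 24.3 to 106 that overlapped Klrk1 at 33.1. Klrc3 and Klrc2 were the lowest pair in all 3 groups. The exon unions of Klrk1 and Klrc2 include retained introns. With the mean length of protein-coding transcripts, an alternative chosen after seeing the data, Klrk1 stood at 103 CPM per kb in unstimulated libraries, above Klrg1 at 50.4 and Klrc1 at 50.3, and Klrc2 stood above Klri1 in all 3 groups (11.6 and 4.81 in unstimulated). In YFP+ libraries the range of Klrk1 (115 to 150.0 CPM per kb) then lay within that of Klrc1 (46.2 to 202). With these lengths Klre1 (168 to 185) lay clear of Klrg1 (35.9 to 63.9) in unstimulated libraries.

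**Figure D2:**
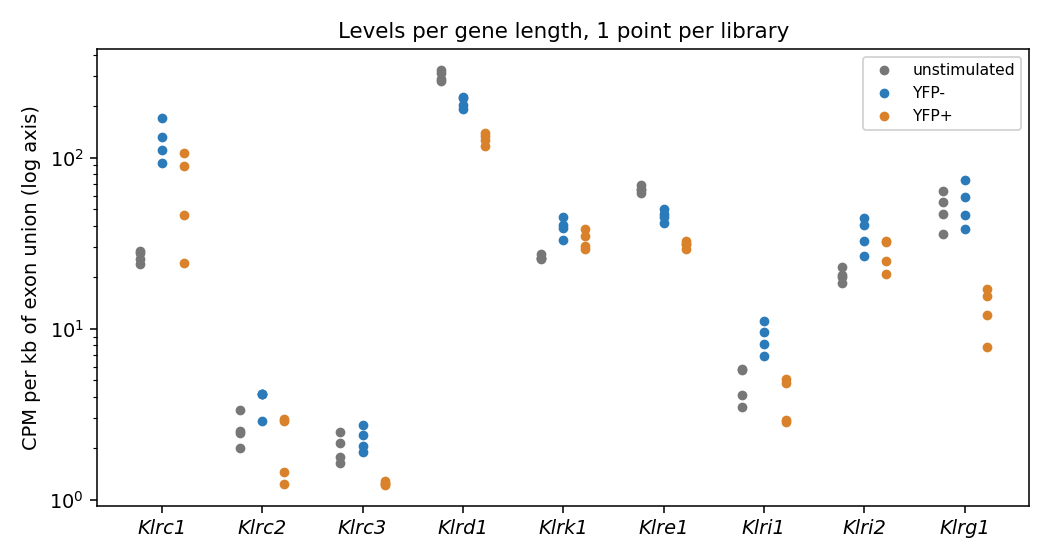
CPM per kb of exon union on a log axis for the 9 receptor genes, 1 point per library, coloured by group. Klrd1 lies above the other genes in each group, and Klrc1 rises from 23.8 to 28.4 in unstimulated libraries to 93.4 to 170 in YFP- libraries.

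The first comparison, YFP+ against YFP- libraries, sets reporter-positive beside reporter-negative cells after the same stimulation. All 9 fold changes were negative and 7 passed the threshold of an adjusted p under 0.05 (limma on the deposited log2 CPM, Benjamini-Hochberg over 12364 genes): Klrc1, Klrc2, Klrc3, Klrd1, Klre1, Klri1 and Klrg1 were lower in YFP+, and 0 were higher. Over all genes tested 21.8% passed, 3.28% higher and 18.5% lower. The median log2 fold change was -0.84 over the 9 genes and -0.19 over all genes tested. Klrc3 had a log2 CPM below 0 in each YFP+ library and passed the filter on low values through the other groups, so the filter favours a difference there; a filter that drops it left 6 of 8. The share of lower calls depended on scaling: the calls over all genes split into 405 higher and 2286 lower for the deposited values, 924 and 1847 after trimmed-mean scaling, 1078 and 1478 after quantile normalization, and 1505 and 1491 after centring each library on its median. The median of all genes moved to -0.05, 0.04 and 0.07 under these 3 settings, and 6, 6 and 5 of the receptor genes were lower.

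The second comparison, YFP- against unstimulated libraries, gave 6 of 9 past the threshold, with Klrc1, Klrk1, Klri1 and Klri2 higher in YFP- and Klrd1 and Klre1 lower. Over all genes 51.1% passed, 30.2% higher and 20.9% lower. The third, YFP+ against unstimulated libraries, also gave 6, with Klrc1 and Klrk1 higher and Klrc3, Klrd1, Klre1 and Klrg1 lower, beside 60.8% of all genes, 27.5% higher and 33.3% lower. In both, 6 of 9 is near the background. In the third, too, Klrc3 passed the filter on low values through the other groups. The filter that drops it left 5 there, with 2 higher and 3 lower. The median log2 fold changes over the 9 genes were 0.58 and -0.36, and those over all genes tested 0.14 and -0.03. When ribosomal RNA-like features did not count towards library totals the latter became -0.05 and -0.215, with 3073 genes higher and 3447 lower in YFP- and 2858 higher and 4912 lower in YFP+, against 3735 and 2586, and 3400 and 4122, as deposited. The 3 comparisons share groups and are given side by side. YFP- and YFP+ cells were sorted after the same stimulation and are not stages in time.

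**Figure D3:**
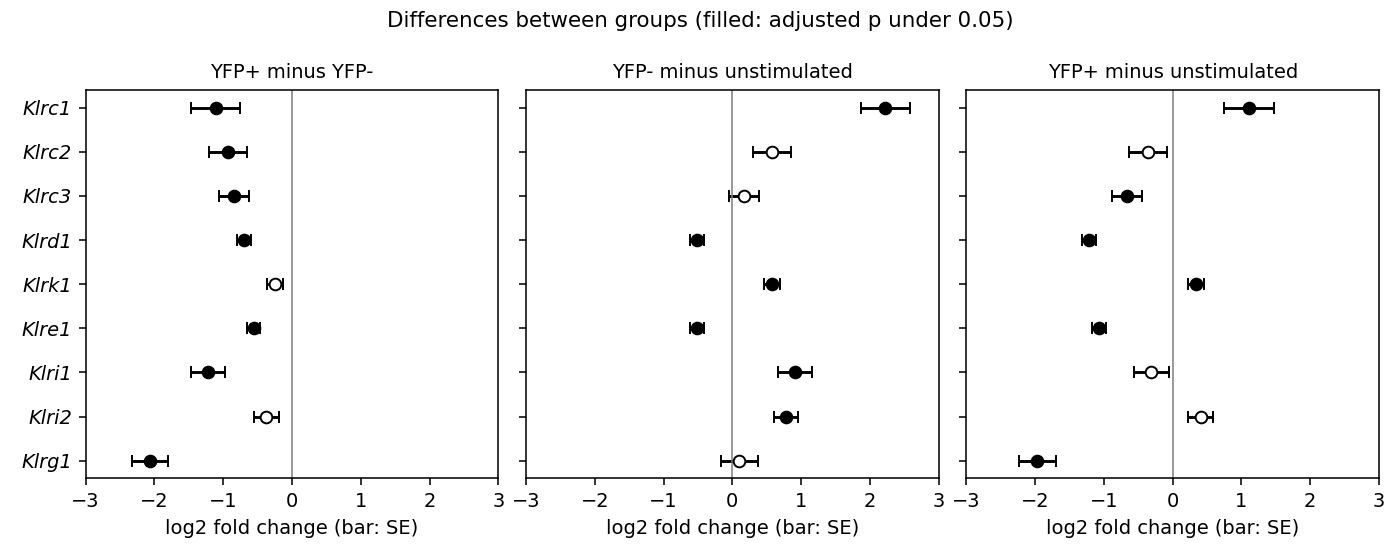
Log2 fold change and SE of each gene in the 3 comparisons, from limma, with filled points for an adjusted p under 0.05. All 9 points lie below 0 for YFP+ against YFP-, while the comparisons with unstimulated libraries have points on both sides.

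Klrd1, the common CD94 chain, was lower in YFP- than in unstimulated libraries and lowest in YFP+. Its levels were 358, 415, 367 and 401 CPM in unstimulated libraries f2, m2, m3 and m4, 289, 287, 259 and 244 CPM in YFP-, and 162, 171, 178 and 150 CPM in YFP+. The 3 groups did not overlap, and the spread within each was small (SD 0.10, 0.12 and 0.11 in log2 CPM, n = 4). The log2 fold change was -0.52 (SE 0.10) in YFP- against unstimulated libraries (limma adjusted p = 0.000922) and -0.71 in YFP+ against YFP- (limma adjusted p = 0.000317). In YFP+ against unstimulated libraries it was -1.22 (limma adjusted p = 2.66e-07).

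Klrc1, which encodes the inhibitory partner NKG2A, went the other way in YFP- against unstimulated libraries. Unstimulated libraries held 55.2, 56.3, 47.2 and 51.0 CPM, YFP- libraries 219, 261, 185 and 337 CPM, and YFP+ libraries 178, 210, 48.1 and 91.2 CPM. Every YFP- library was above every unstimulated one, while YFP+ libraries split, with f2 and m2 near the YFP- range, m4 below it, and m3 within the unstimulated range. The log2 fold change was 2.22 (SE 0.36) in YFP- over unstimulated libraries (limma adjusted p = 0.000201), a 4.67-fold rise. In YFP+ over YFP- it was -1.11 (limma adjusted p = 0.0418), with all 4 labels lower in YFP+, and in YFP+ over unstimulated 1.11 (limma adjusted p = 0.0159).

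The YFP+ libraries m3 and m4, which were the low ones for Klrc1, Klrc2, Klri1, Klri2, Klrk1 and Klrg1, held 36.2 and 32.1 M reads with 29.8 and 23.1% ribosomal RNA-like, against 48.9 and 54.2 M with 13.7 and 16.3% in f2 and m2; the part of depth or library make-up was not tested. The lower Klrc1 level in YFP+ than in YFP- was not past the threshold without label f2 (-1.38, limma adjusted p = 0.0531), m3 (-0.83, limma adjusted p = 0.0608) or m4 (-0.85, limma adjusted p = 0.265), nor with libraries centred on their medians (-0.85, limma adjusted p = 0.061), weighted by their quality (-0.60, limma adjusted p = 0.132) or scaled by trimmed means (-0.98, limma adjusted p = 0.0552). It was also lost in a fit of the 8 libraries compared (limma adjusted p = 0.0981), without the trend (limma adjusted p = 0.0589) and without a filter on low values (limma adjusted p = 0.302). The higher level in YFP+ than in unstimulated libraries was lost without f2 (0.92, limma adjusted p = 0.0934), m2 (0.85, limma adjusted p = 0.0905) or the filter (limma adjusted p = 0.137).

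Klrc2, which encodes the activating partner NKG2C, had 11.7 to 19.4 CPM in unstimulated libraries (mean 15.0 ± 3.21, SD, n = 4), 16.7 to 24.3 in YFP- (22.3 ± 3.69) and 7.21 to 17.1 in YFP+ (12.4 ± 5.28). The groups overlapped throughout, and YFP+ libraries again split, with f2 and m2 at 16.8 and 17.1 CPM and m3 and m4 at 7.21 and 8.49. YFP+ was lower than YFP- by a log2 fold change of -0.94 (SE 0.28, limma adjusted p = 0.027), a call that was lost without m3 (-0.84, limma adjusted p = 0.059) or m4 (-0.75, limma adjusted p = 0.172), with quality weights (-0.65, limma adjusted p = 0.0565), in a fit of the 8 libraries compared (limma adjusted p = 0.0581) and without the filter (limma adjusted p = 0.191). Against unstimulated libraries the values were 0.58 for YFP- (limma adjusted p = 0.0953) and -0.36 for YFP+ (limma adjusted p = 0.278), neither past the threshold. The former passed in a fit of the 8 libraries compared (limma adjusted p = 0.0139), with quality weights (0.56, limma adjusted p = 0.0274) and with the replicate label as a block (limma adjusted p = 0.0346), and the latter without ribosomal RNA-like features (-0.55, limma adjusted p = 0.0432).

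Klrc3, which encodes NKG2E, was the lowest of the 9, with 29 to 98 reads per library. It had 1.21, 1.32, 1.83 and 1.57 CPM in unstimulated libraries, 1.40, 1.52, 1.75 and 2.0 in YFP-, and 0.899, 0.922, 0.939 and 0.902 in YFP+. Every YFP+ library was below every other library. The SD of 0.03 in log2 CPM among YFP+ libraries is under the 0.23 that counting alone gives at a mean of 39.2 reads, so that closeness does not measure the precision. The log2 fold change was -0.84 (SE 0.22, limma adjusted p = 0.0145) against YFP- and -0.67 (limma adjusted p = 0.0172) against unstimulated libraries. Both calls were lost without m2, m3 or m4 (limma adjusted p 0.0565 to 0.102), with libraries centred on their medians (-0.58 and -0.55, limma adjusted p = 0.101 and 0.0662) and with quantile normalization (-0.49 and -0.33, limma adjusted p = 0.152 and 0.231). YFP- and unstimulated libraries differed by 0.17 (limma adjusted p = 0.53).

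The ratio of the NKG2 genes to Klrd1 was also compared, since a ratio within a library does not depend on the scaling between libraries. Per length, the summed level of Klrc1, Klrc2 and Klrc3 was 0.0954 to 0.114 of that of Klrd1 in unstimulated libraries, 0.488 to 0.925 in YFP- and 0.193 to 0.823 in YFP+. With the lengths of protein-coding transcripts these ranges were 0.120 to 0.147, 0.596 to 1.13 and 0.238 to 1.01. Per length of exon union, Klrc1 held 85.1 ± 1.95% of the summed Klrc level in unstimulated libraries (SD, n = 4), 95.3 ± 0.655% in YFP- and 94.2 ± 2.52% in YFP+. With the lengths of protein-coding transcripts its share was 76.3 to 81.4%, 91.1 to 93.8% and 87.0 to 93.3%. In YFP- over unstimulated libraries the log2 ratio rose by 2.74 for Klrc1 to Klrd1, 1.09 for Klrc2 to Klrd1 and 1.65 for Klrc1 to Klrc2. Each had a 2-sided exact permutation p = 0.0286 (0.0429 adjusted over 24 tests), the smallest that 4 libraries against 4 allow over 70 assignments, in 4 of 4 labels.

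Between YFP+ and YFP- libraries these 3 ratios were not told apart. The log2 ratio of Klrc1 to Klrd1 was -0.40, -0.14, -0.48 and 0.46 in YFP- and 0.14, 0.29, -1.89 and -0.72 in YFP+, lower in 2 of 4 labels. The difference was -0.41 (exact permutation p = 0.571, adjusted 0.623), beside a pooled SD of 0.769. For Klrc2 to Klrd1 it was -0.23 (exact permutation p = 0.629, adjusted 0.656) and for Klrc1 to Klrc2 -0.18 (exact permutation p = 0.514, adjusted 0.588). All 3 differences were smaller than the spread between libraries, which does not show that the ratios were alike.

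Klrk1, which encodes NKG2D, was higher in both stimulated groups. It had 183, 186, 186 and 195 CPM in unstimulated libraries, 288, 322, 236 and 280 CPM in YFP-, and 274, 250, 210 and 218 CPM in YFP+. Every stimulated library was above every unstimulated one, and the stimulated groups overlapped. The log2 fold change was 0.58 (SE 0.12) in YFP- over unstimulated libraries (limma adjusted p = 0.00121) and 0.33 in YFP+ over unstimulated (limma adjusted p = 0.0254). The latter was lost without f2 (0.25, limma adjusted p = 0.159), m2 (0.30, limma adjusted p = 0.107) or m4 (0.39, limma adjusted p = 0.051), with quantile normalization (0.12, limma adjusted p = 0.249), without ribosomal RNA-like features (0.14, limma adjusted p = 0.175) and without the filter (limma adjusted p = 0.0782). YFP+ and YFP- differed by -0.24 (limma adjusted p = 0.164), and by 0.02 with libraries centred on their medians.

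Relative to Klrd1, Klrk1 was higher in YFP- than in unstimulated libraries, and higher in YFP+ than in YFP-. In the latter comparison Klrk1 itself was not higher (-0.24), and the ratio differed because Klrd1 was lower (-0.705). The log2 ratio of Klrk1 to Klrd1 was -1.15 to -0.97 among unstimulated libraries, -0.13 to 0.20 among YFP- and 0.24 to 0.76 among YFP+ libraries, with no overlap. The differences were 1.09 in YFP- against unstimulated libraries, and 0.46 in YFP+ against YFP- (exact permutation p = 0.0286, adjusted 0.0429 for each). Hcst, which encodes the NKG2D adaptor DAP10, had a mean of 125, 85.4 and 73.2 CPM and fell by 0.54 in log2 from unstimulated to YFP- libraries (limma adjusted p = 0.0403). The log2 ratio of Klrk1 to Hcst rose by 1.12 in YFP- and by 1.13 in YFP+ over unstimulated libraries (exact permutation p = 0.0286, adjusted 0.0429), and differed by 0.01 between YFP+ and YFP- (exact permutation p = 1, pooled SD 0.474). Tyrobp, which encodes DAP12, had a mean of 950, 524 and 476 CPM and fell by 0.85 from unstimulated to YFP- (limma adjusted p = 0.00013). It differed by -0.16 between YFP+ and YFP- (limma adjusted p = 0.429). Hcst and Tyrobp are named as the direct partners, with their values known.

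Klre1, the shared chain of the KLRE1 heterodimers, had the same order of groups as Klrd1. It had 217, 240, 226 and 230 CPM in unstimulated libraries, 164, 175, 145 and 157 CPM in YFP-, and 109, 113, 110 and 103 CPM in YFP+. No library of 1 group reached into another. The log2 fold change was -0.51 (SE 0.10) in YFP- against unstimulated libraries (limma adjusted p = 0.000596) and -0.56 in YFP+ against YFP- (limma adjusted p = 0.00104). In YFP+ against unstimulated libraries it was -1.07 (limma adjusted p = 5.02e-07).

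Both partners of Klre1 rose from unstimulated to YFP- libraries. Klri2, for the activating chain, had 81.2, 89.5, 72.6 and 78.4 CPM in unstimulated libraries, 127, 173, 104 and 157 CPM in YFP-, and 126, 128, 81.2 and 97.4 CPM in YFP+. YFP- libraries were all above unstimulated ones (0.78, SE 0.18, limma adjusted p = 0.00271), while YFP+ libraries overlapped both groups. The differences of YFP+ were -0.37 against YFP- (limma adjusted p = 0.16) and 0.41 against unstimulated libraries (limma adjusted p = 0.0649), not past the threshold. The former passed without ribosomal RNA-like features in the totals (-0.38, limma adjusted p = 0.0495). The latter passed without m3 (0.49, limma adjusted p = 0.0191), with median centring (0.53, limma adjusted p = 0.00334), trimmed-mean scaling (0.48, limma adjusted p = 0.0129), quality weights (0.57, limma adjusted p = 0.00314) and the replicate label as a block (limma adjusted p = 0.0163). Klri1, for the inhibitory chain, was at 2.94 to 4.90 CPM among unstimulated libraries, 5.81 to 9.34 among YFP- and 2.40 to 4.27 among YFP+ libraries, on 77 to 461 reads. Its YFP- libraries stood above both other groups, with 0.91 (SE 0.25) over unstimulated libraries (limma adjusted p = 0.00807) and -1.22 in YFP+ against YFP- (limma adjusted p = 0.00358). The former was lost without m4 (0.81, limma adjusted p = 0.0564) and without the filter (limma adjusted p = 0.0551). YFP+ differed from unstimulated libraries by -0.31 (limma adjusted p = 0.302).

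Within libraries, the log2 ratio of Klri2 to Klre1 rose by 1.29 and that of Klri1 to Klre1 by 1.42 from unstimulated to YFP- (exact permutation p = 0.0286, adjusted 0.0429 for each). In YFP+ against YFP- libraries the ratio of Klri1 to Klre1 was lower by 0.66 (exact permutation p = 0.0286, adjusted 0.0429). With a pseudocount of 1 CPM that ratio was lower by 0.45 (exact permutation p = 0.0857). The ratio of Klri2 to Klre1 differed by 0.19 between YFP+ and YFP- (exact permutation p = 0.371, adjusted 0.446). Per length, Klri1 and Klri2 together came to 0.340 to 0.429 of the Klre1 level among unstimulated libraries, 0.808 to 1.11 among YFP- and 0.755 to 1.20 among YFP+ libraries. Klri2 held 81.2 ± 2.78% of that sum in unstimulated, 79.9 ± 0.58% in YFP- and 87.7 ± 1.44% in YFP+ libraries (SD, n = 4).

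**Figure D4:**
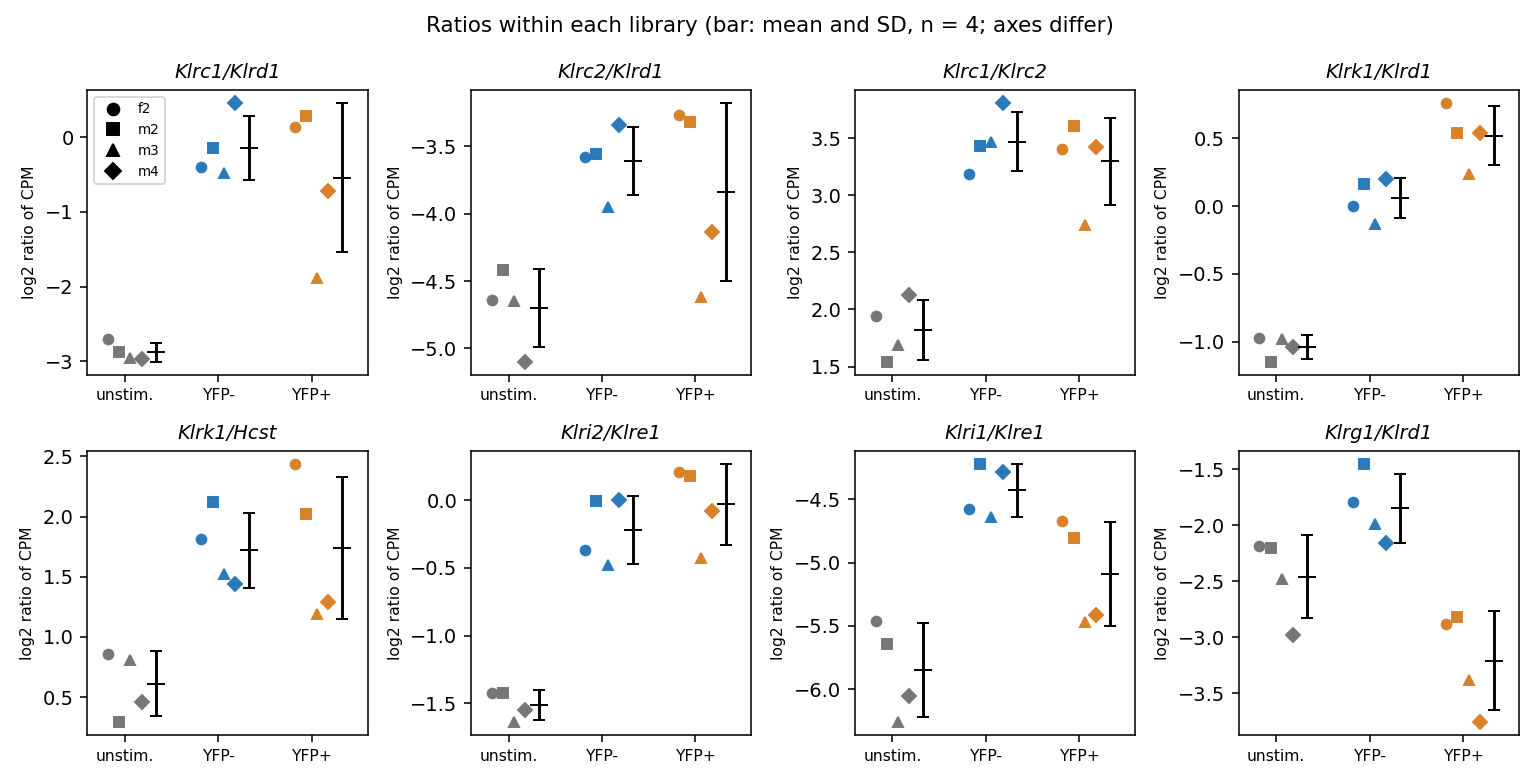
Log2 ratios of CPM between receptor genes and their partners in each library, by group, with a bar for the mean and SD (n = 4). All 8 ratios are higher in YFP- than in unstimulated libraries with no overlap, and Klrk1/Klrd1, Klri1/Klre1 and Klrg1/Klrd1 separate YFP+ from YFP- libraries.

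Klrg1 set the YFP+ libraries apart. It had 78.2, 90.3, 65.9 and 50.7 CPM in unstimulated libraries, 83.6, 105, 65.2 and 54.5 CPM in YFP-, and 21.9, 24.2, 17.1 and 11.1 CPM in YFP+. The unstimulated and YFP- libraries overlapped, and every YFP+ library was below both. The log2 fold change was -2.07 (SE 0.27) against YFP- (limma adjusted p = 0.000135), and -1.97 against unstimulated libraries (limma adjusted p = 2.25e-05). YFP- and unstimulated libraries differed by 0.10 (limma adjusted p = 0.771). Klrc3 shared this pattern at its low level, and outside the 9 genes Klrb1b and Cd96 also had their lowest mean in YFP+. Means in unstimulated, YFP- and YFP+ libraries were 45.6, 46.4 and 5.07 CPM for Klrb1b, and 128, 131 and 47.3 CPM for Cd96. The log2 ratio of Klrg1 to Klrd1 was 1.36 lower in YFP+ than in YFP- (exact permutation p = 0.0286, adjusted 0.0429), so Klrg1 differed more than the CD94 chain did.

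Over the 8 ratios, 8 were past the threshold in YFP- over unstimulated libraries, 5 in YFP+ over unstimulated libraries and 3 in YFP+ against YFP- libraries. These are not separate results. All but Klrc1 to Klrc2 are taken over Klrd1, Klre1 or Hcst, each lower in YFP- than in unstimulated libraries (-0.52, -0.51 and -0.54). The ratio of Klrg1 to Klrd1 rose by 0.62 there, while Klrg1 itself differed by 0.10. By sequence feature, the 3 genes with an ITIM (Klrc1, Klri1 and Klrg1) had log2 fold changes of -1.11, -1.22 and -2.07 in YFP+ against YFP-, all past the threshold. The 3 with a charged codon in the hydrophobic run (Klrd1, Klrk1 and Klri2) had -0.71, -0.24 and -0.37, with only Klrd1 past it. Klrc2, Klrc3 and Klre1, with neither feature, had -0.94, -0.84 and -0.56, all past it. Over all genes tested 18.5% were lower in YFP+ than in YFP-. The calls of Klrc1, Klrc2 and Klrc3 were lost under some settings given above. In YFP- against unstimulated libraries the values were 2.22, 0.91 and 0.10 with an ITIM, -0.52, 0.58 and 0.78 with a charged codon, and 0.58, 0.17 and -0.51 with neither. In YFP+ against unstimulated they were 1.11, -0.31 and -1.97, then -1.22, 0.33 and 0.41, and -0.36, -0.67 and -1.07. The difference between these groups of genes was not tested.

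Across the 12 libraries the Pearson correlation of log2 CPM was 0.99 between Klrd1 and Klre1, 0.948 between Klrc1 and Klri2 and between Klrk1 and Klri2, and -0.427 between Klrk1 and Klre1. These values describe 12 libraries in 3 groups that share their scaling. Among about 8120 genes with a mean log2 CPM of at least 2, the closest patterns to Klrd1 were those of Sri, Ahnak and Sh2d1a (0.993 each), and to Klre1 that of Ahnak (0.995). Tank (0.977) was closest to Klrc1, Nfe2l2 (0.983) to Klrk1, Eif2ak2 (0.981) to Klrg1, Klra9 (0.953) to Klri1, Sbno1 (0.969) to Klri2, Hps6 (0.971) to Klrc2 and Plgrkt (0.93) to Klrc3.

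Of the genes that carry the signal of activating receptors onwards, 14 of 15 were tested. In YFP+ against YFP- libraries 2 were higher, Lat (0.57) and Fyn (0.56), and 3 lower, namely the kinase gene Syk (-1.91), Pik3cd (-1.16) and Lck (-0.87). The list median was -0.38 beside -0.19 over all genes, of which 3.28% were higher and 18.5% lower. After trimmed-mean scaling 3 were higher and 2 lower, since Lck was no longer past the threshold (-0.73, limma adjusted p = 0.0506) and Grb2 was (0.58, limma adjusted p = 0.0298). In YFP- against unstimulated libraries Lcp2, which encodes the scaffold SLP-76, and Sh3bp2 were higher by 1.94 and 1.45, and 5 were lower, led by Syk (-1.81), Pik3cd (-1.36) and Plcg2 (-1.15). In YFP+ against unstimulated libraries 4 were higher, led by Lcp2 (1.57), Sh3bp2 (0.98) and Fyn (0.65), and 6 lower, led by Syk (-3.71), Pik3cd (-2.52) and Plcg2 (-1.55). These 7 and 10 calls of 14 are near the 51.1% and 60.8% over all genes, and the list medians were -0.16 and -0.36 beside 0.14 and -0.03.

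Of the 3 phosphatase genes that act with ITIM receptors, Ptpn6, which encodes SHP-1, averaged 364 CPM in YFP-, 194 in YFP+ and 92.2 in unstimulated libraries. It rose by 2.0 in log2 in YFP- over unstimulated libraries (limma adjusted p = 7.19e-05) and was lower by 1.01 in YFP+ than in YFP- (log2 fold change -1.01, limma adjusted p = 0.0218). Inpp5d, which encodes SHIP-1, changed by -1.01 and -0.83 in these comparisons (limma adjusted p = 3.26e-05 and 0.000604), and Ptpn11 passed in neither.

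Transcripts for the ligands were present in the NK cells themselves to different degrees. H2-T23, which encodes Qa-1, had a mean of 62.0, 75.4 and 72.0 CPM and passed in 0 of the 3 comparisons. Class I genes share sequence, so H2-T23 and H2-D1 are uncertain by shared reads. Of the 6 genes of Qa-1 and its loading, 4 were lower in YFP+ than in YFP-, led by Tap1 (-1.49), Tap2 (-1.28) and H2-D1 (-0.64), and 1, Tapbp (1.19), was higher in YFP- than in unstimulated libraries. Against unstimulated libraries, 3 of the 6 were lower in YFP+. The shares over all genes were 18.5% lower in YFP+ than in YFP-, 30.2% higher in YFP- than in unstimulated and 33.3% lower in YFP+ than in unstimulated libraries. With 6 genes, the counts against unstimulated libraries are not told apart from these shares. Of 8 NKG2D ligand genes, only Ulbp1, which encodes MULT1, passed the filter, with a mean of 13.5, 10.5 and 3.33 CPM and a log2 fold change of -1.69 in YFP+ against YFP- (limma adjusted p = 0.000112). Raet1d, Raet1e, H60b and H60c were at 0 to 13 reads per library, and Raet1a, Raet1b and Raet1c were not analysed here. Of 3 cadherin genes that encode KLRG1 ligands, only Cdh1 passed the filter, with a mean of 4.09, 2.94 and 2.32 CPM, and was lower in YFP+ than in unstimulated libraries (-0.82, limma adjusted p = 0.00274).

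Neighbouring receptor families of the same gene complex were counted for comparison. Of 10 Ly49 genes tested, 6 were lower in YFP+ than in YFP-, beside 18.5% of all genes, led by Klra6 (-1.64), Klra1 (-0.95) and Klra8 (-0.93). In that comparison 1 was higher, Klra2 (1.34, on 5 to 165 reads a library), and the list median was -0.72. No unstimulated library took Klra2 past the filter on low values; without it 6 of 9 were lower. After trimmed-mean scaling Klra3 was also higher (0.43, limma adjusted p = 0.0391). In YFP- over unstimulated libraries 4 of the 10 were higher, led by Klra2 (1.33), Klra3 (0.69) and Klra5 (0.63), near the 30.2% of all genes that were higher, and without Klra2 3 of 9. The 5 NKR-P1 genes were lower in YFP+ than in YFP-, led by Klrb1c (-3.59), Klrb1b (-3.23) and Klrb1f (-2.89), with a median of -2.89. Klrb1, at 0.249 CPM in YFP+ libraries, passed the filter through the other groups; without it 4 of 4 were lower, with a median of -3.06. Counts without such genes were added after seeing the data. Klrb1c also fell by 2.05 from unstimulated to YFP- libraries. Members of these 2 families have near-identical relatives, so their values are uncertain by reads shared among them, and whether their medians differ from that of the 9 genes was not tested.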

How the data were processed

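RNA from 12 samples was read as paired ends (NovaSeq-6000) after SMARTer Ultra Low cDNA synthesis from 10 ng of RNA, per the labels' protocols. STAR 2.7.9a, Subread featureCounts 2.0.3 and bcl2fastq with GRCm38 are named in the submitters' processing notes, without settings; strand handling is not given in the sources used here. The deposited table holds moderated log2 CPM as the authors made it, beside other columns of gene identifiers. Of its 55774 lines, 287 repeated lines were dropped. Every value gave back a whole read count (100% within 0.1 reads) with a prior of 0.5 reads scaled to library size, inferred here, which gave library totals; intervals and floors cover counting error only. Gene positions are from GENCODE M21, matched for 55227 identifiers (99.5%).

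A gene was tested when 4 or more samples exceeded a log2 CPM of 0 (12364 genes), in limma 3.58.1 (R 4.3.3; lmFit, contrasts, eBayes with trend), all 12 samples together, with Benjamini-Hochberg adjustment. The fit was tested on simulated data. The 8 log2 ratios were compared by 2-sided exact permutation tests. Other steps used Python 3.11.15, pandas 2.3.3, Biopython 1.88 and matplotlib 3.10.9. The members, the 10 context lists (78 genes, 75 with a row) and the tests were chosen with earlier results of these data known. All 9 members are named; from each list up to 3 genes per direction with the largest fold change past the threshold, and the 3 closest patterns per member were ranked. Replicate labels recur across groups but are not stated to mark a mouse, so the model has no block. Same-label correlations of deviations were not all above 0.1. The 16 alternative settings are in the closing section.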

Additional observations from a re-analysis of the deposited data

Results flagged for a closer look

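In 51 sets of 4 values (levels of the 9 genes and the 8 ratios in each group), 1 had a library far from the other 3, where chance alone gives 2.55. Klrc2 in YFP- libraries had label m3 below the rest: its log2 CPM was 4.07 and the other 3 lay at 4.59 to 4.60, so the gap took 0.971 of the range, past Dixon's limit at 95%. That library had the highest ribosomal RNA-like share of its group, 30.3%; its part in the value was not tested.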

How the results depend on the processing

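Of 27 fold changes of the 9 genes, 12 kept direction and side of the threshold under every one of the 16 alternatives run. Of the values under these alternatives, 372 were on the same side, 41 were no longer past the threshold, 10 newly passed and 6 reversed. All 6 reversals were in fold changes not past the threshold: Klrk1 in YFP+ against YFP- with median centring (0.02), Klrc3 in YFP- against unstimulated without ribosomal RNA-like features (-0.01), Klrg1 in YFP- against unstimulated with quantile normalization (-0.14), centring (-0.04) and without ribosomal RNA-like features (-0.08), and Klri1 in YFP+ against unstimulated with quantile normalization (0.00). The number past the threshold in YFP+ against YFP- fell from 7 to 4 at an adjusted p under 0.01 and was 4 to 6 when 1 label was left out, lowest without m3 or m4. In YFP+ against unstimulated libraries it fell from 6 to 3 at an adjusted p under 0.01 and was 3 to 6 when 1 label was left out, lowest without m2. In YFP- against unstimulated libraries it was 5 to 6. Over all genes, 2691 were called in YFP+ against YFP- libraries, 1466 at an adjusted p under 0.01, 1583 without the filter, 1571 without m2 and 1643 without m4. A stricter threshold passes fewer genes by construction; the cause of the other drops was not tested.

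The replicate block (a term for each label) gave 7, 7 and 7. Klrc2 in YFP- against unstimulated libraries (0.58, limma adjusted p = 0.0346) and Klri2 in YFP+ against unstimulated libraries (0.41, limma adjusted p = 0.0163) passed with the block, and it changed no other call of the 9 genes. Same-label deviations correlated at 0.054 to 0.374 for YFP+ with YFP-, -0.059 to 0.1 for YFP- with unstimulated and -0.042 to 0.375 for YFP+ with unstimulated libraries. Since the labels are not stated to mark a mouse, the main fit did not treat them as pairs. For 16 ratios past the threshold, all 80 values from sign flips by label or with 1 label left out kept their direction, at the smallest p these designs allow (0.125 and 0.1), which cannot pass the threshold. Ratios not past it reversed for Klrc1 to Klrc2 without m3 (0.01; -0.31 to 0.01 with 1 label left out) and Klrk1 to Hcst without f2 (-0.19; -0.19 to 0.12), both in YFP+ against YFP-. With a pseudocount of 1 CPM, 22 of 24 ratio results kept their call; Klri1 to Klre1 lost it in YFP+ against YFP- and gained it in YFP+ against unstimulated libraries (0.83, exact permutation p = 0.0286). Depth limits Klrc3, at 29 to 98 reads a library.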

Other observations

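Receptor and maturation genes outside the lectin families were also counted. Of 9 other NK receptor genes tested, 6 were lower in YFP+ than in YFP- libraries, led by Cd226 (-3.34), which encodes DNAM-1, Fcgr3 (-2.28), which encodes the Fc receptor CD16, and Cd96 (-1.60), and 0 were higher (median -0.85). In YFP- over unstimulated libraries 4 were higher, led by Crtam (6.79), Lilrb4a (2.53) and Cd160 (1.88), and 1 was lower. Mean levels of Crtam were 13.3, 1470 and 1700 CPM in unstimulated, YFP- and YFP+ libraries. In YFP+ against unstimulated libraries 2 of the 9 were higher, Crtam (6.89) and Cd160 (1.66), and 4 lower. Over all genes 18.5% were lower in YFP+ than in YFP-. Against unstimulated libraries 30.2% of all genes were higher and 20.9% lower in YFP-, and 27.5% higher and 33.3% lower in YFP+. The counts against unstimulated libraries are near these shares.

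Klrg1 is a marker of mature NK cells, and 8 other genes of the mature stage were tested. In YFP+ against YFP- libraries the median was -0.06, and S1pr5 was the only gene past the threshold, at 2.74, 0.719 and 0.18 CPM in unstimulated, YFP- and YFP+ libraries. It passed the filter on low values through unstimulated libraries only; without it the median of the other 7 was -0.02. In YFP- over unstimulated libraries Zeb2 and Tbx21, transcription factor genes of late maturation, were higher by 2.89 and 1.28, and 5 were lower, led by Prdm1 (-2.41), or 4 of 7 without S1pr5. Over all genes 30.2% were higher and 20.9% lower there. Of 8 genes of the immature stage, 7 were lower in YFP+ than in YFP-, beside 18.5% of all genes, with a median of -2.13. Il7r (1.37 CPM in YFP- and 0.0414 in YFP+) and Cxcr3 (3.63 and 0.533 CPM) had no YFP+ library past the filter and passed it through the other groups. Without these, an alternative added after seeing the data, 5 of 6 were lower, led by Ltb (-3.47) and Tcf7 (-2.80), with a median of -1.50. The gene not past the threshold, Cd27, named after its values were seen, had a mean of 51.3, 113 and 141 CPM and differed by 0.31 (limma adjusted p = 0.209). After trimmed-mean scaling Cd27 was higher in YFP+ than in YFP- (0.44, limma adjusted p = 0.0328).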
